A study of Mus musculus with 12 samples.

Results

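The genes described here are Nfe2l2, which encodes the transcription factor Nrf2, its inhibitor gene Keap1, and 8 genes whose transcription Nrf2 is known to raise: Ephx1, Nqo1, Hmox1, Gclc, Gclm, Slc7a11, Srxn1 and Txnrd1. They are 10 of the 19938 genes that could be named on the arrays. A gene was taken from the transcript clusters (the probe sets of this array type) annotated to it alone, by the cluster of highest mean over all 12 arrays, and each of the 10 had 1 such cluster. The names are those of a known pathway, and they were chosen with earlier results of these data known. For 9 of them the signal was high enough to be tested, among 13977 tested genes in all. Slc7a11 lay between the 15th and 22nd percentile of every array and is given by its values alone.

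Nrf2 is held in the cytoplasm by Keap1, which hands it to an E3 ubiquitin ligase for destruction. Electrophiles and oxidants modify cysteines of Keap1, and Nrf2 then reaches the nucleus, pairs with a small Maf protein and binds antioxidant response elements in DNA. In liver its targets make and recycle glutathione, reduce thiols and quinones, break down haem, and detoxify epoxides, and bile acids retained in cholestasis are among the stresses known to engage it. Because Nrf2 is controlled largely through the stability of its protein, transcript levels of Nfe2l2 and Keap1 do not measure its activity.

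The arrays came from whole liver of mice aged 2 weeks, with 3 arrays for each of 4 genotypes. Stat3Δhc Mdr2-/- mice lack Mdr2, the canalicular phospholipid transporter encoded by Abcb4. They also carry a deletion of Stat3, a transcription factor of interleukin 6 and growth hormone signalling. Stat3Fl/Fl Mdr2-/- mice lack Mdr2 and carry floxed but intact Stat3. Stat3Δhc mice have the Stat3 deletion with Mdr2 present, and Stat3Fl/Fl mice carry floxed Stat3 with Mdr2 present. Loss of Mdr2 is a mouse model of sclerosing cholangitis, and the study asked which pathways accompany cholestasis and bile acid injury when Stat3 is also deleted. The labels name neither the Cre line nor the cells in which it acts, and do not say whether each array is a separate animal, so that p-values measure the spread between these arrays, which may be technical. In tissue of mixed cells, fewer cells of a type and less transcript per cell cannot be told apart.

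Windows of 300 bases around the annotated starts (250 before and 50 after, RefSeq, GRCm38.p6) were at hand for 8 of the genes, with 3 alternative starts for Txnrd1. Those of the 4 genes whose levels passed the test somewhere are printed 5′ to 3′ on the gene's strand. Capitals mark matches on either strand to the core of the antioxidant response element, TGACNNNGC, or to the related site of AP-1 factors, TGANTCA. The windows lie at chr3:122245307-122245606 on the plus strand for Gclm, chr2:152105274-152105573 on the plus strand for Srxn1, chr10:82858956-82859255 on the plus strand for the second start of Txnrd1, and chr1:181017520-181017819 on the minus strand for Ephx1.
Gclm: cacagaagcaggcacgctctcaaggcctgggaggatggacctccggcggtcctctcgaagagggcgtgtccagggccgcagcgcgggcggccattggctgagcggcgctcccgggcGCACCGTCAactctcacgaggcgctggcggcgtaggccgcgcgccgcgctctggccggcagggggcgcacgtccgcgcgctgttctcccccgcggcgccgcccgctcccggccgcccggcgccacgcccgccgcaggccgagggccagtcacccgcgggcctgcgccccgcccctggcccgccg
Srxn1: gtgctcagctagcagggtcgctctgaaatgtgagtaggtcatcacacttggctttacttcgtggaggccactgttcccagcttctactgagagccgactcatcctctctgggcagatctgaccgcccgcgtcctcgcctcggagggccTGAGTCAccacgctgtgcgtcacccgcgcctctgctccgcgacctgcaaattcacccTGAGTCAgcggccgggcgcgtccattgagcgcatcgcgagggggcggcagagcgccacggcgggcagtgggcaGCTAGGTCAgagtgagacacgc
Txnrd1, second start: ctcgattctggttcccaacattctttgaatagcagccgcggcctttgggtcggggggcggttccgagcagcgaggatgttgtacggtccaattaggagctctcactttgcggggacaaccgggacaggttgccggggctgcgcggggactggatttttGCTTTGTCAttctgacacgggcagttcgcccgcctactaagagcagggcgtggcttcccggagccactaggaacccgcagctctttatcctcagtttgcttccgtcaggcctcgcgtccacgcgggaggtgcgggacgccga
Ephx1: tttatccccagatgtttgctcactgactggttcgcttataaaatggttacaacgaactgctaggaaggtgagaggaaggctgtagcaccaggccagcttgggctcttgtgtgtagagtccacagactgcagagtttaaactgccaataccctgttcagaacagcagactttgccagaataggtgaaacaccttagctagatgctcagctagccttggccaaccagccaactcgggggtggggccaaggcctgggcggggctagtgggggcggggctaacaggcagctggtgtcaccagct

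The element core lay 134 to 126 bases before the start of Gclm, 92 to 84 bases before the second start of Txnrd1, and 29 to 37 bases into the transcript of Srxn1, in each case on the opposite strand. Nfe2l2 itself had a match 240 to 232 bases before its start. The windows of Keap1, Ephx1, Nqo1 and Slc7a11 and the other 2 starts of Txnrd1 held no match, so 4 of these 8 genes had one. Of all 27025 genes with a window, 14% had a match in at least 1 window, and 12.4% of all 32851 windows did. The AP-1 site occurred in Srxn1 alone among the 8, at 102 to 96 and 45 to 39 bases before the start. The pattern matches both strands at once and was present for 8.97% of all genes with a window (7.81% of windows). No 2 matches overlapped. At the Srxn1 match 45 to 39 bases before the start, the window reads on as TGAGTCAGC. That stretch differs from the searched element core only by G in place of C after TGA, and was not counted as a match to it. A match of letters is a description of the window and not evidence of binding.

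**Figure D1:**
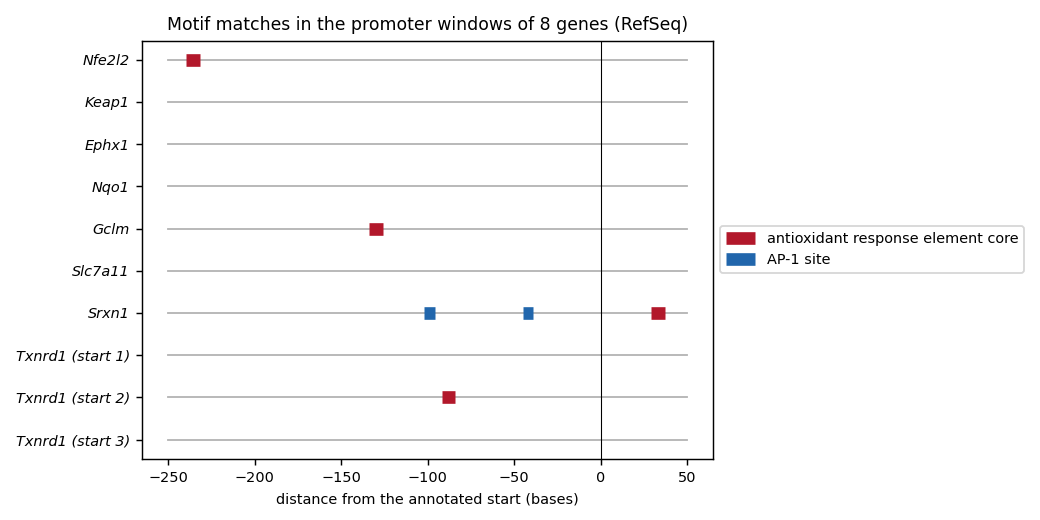
Matches to the antioxidant response element core (red) and to the AP-1 site (blue) in the 300-base windows of 8 genes, plotted by distance in bases from each annotated start, with each of the 3 starts of Txnrd1 on its own line. Nfe2l2, Gclm, Srxn1 and the second start of Txnrd1 carry the element core, and Srxn1 alone carries the AP-1 site, at 2 places.

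Levels are log2 signals after robust multi-array averaging (RMA), and each change is a difference of mean log2 signals, fitted with limma over all 12 arrays. A gene is called when its p, adjusted by Benjamini-Hochberg over all 13977 tested genes, lies under 0.05. Stat3 lay between 7.69 and 8.12 in the 6 arrays titled as deleted and between 9.19 and 9.54 in the 6 titled as floxed. Abcb4 lay between 8.87 and 9.36 in the Mdr2-/- arrays and between 10 and 10.28 in those with Mdr2. One label field, the source name, gives each Mdr2-/- array the genotype that its title, its description and its genotype field give to the other group. Grouping by that field would turn the sign of each Stat3 comparison on the Mdr2 knockout, and the titles, which the Stat3 signal follows, were used.

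Transcripts of other tissues and of sex moved with the Mdr2 genotype, and they stand beside every Mdr2 comparison that follows. The mean of 14 skeletal muscle genes was 5.42 to 5.79 in the 6 Mdr2-/- arrays, against 8.55 to 9.33 in the 6 arrays with Mdr2, and all 14 fell in both Mdr2 comparisons, including Acta1, Ckm and Myh1. The mean of 12 exocrine pancreas genes was 5.38 to 5.75 in Mdr2-/- arrays, against 5.89 in array A of Stat3Δhc liver, 5.71 in array A of Stat3Fl/Fl liver and 7.25 to 9.79 in arrays B and C of both. Erythroid genes had array means of 6.64 to 6.93 in Mdr2-/- liver, against 7.14 to 7.5 with Mdr2. Xist was high and Y-linked transcripts low in all Stat3Fl/Fl Mdr2-/- arrays and in array A of Stat3Δhc Mdr2-/- liver, and the reverse held in the other 8 arrays. In Stat3Fl/Fl liver, Mdr2 loss and this pattern therefore cannot be told apart, and nowhere can Mdr2 loss and the muscle signal be told apart. The pattern also differed within the Stat3 comparison on the knockout, where only array A of Stat3Δhc Mdr2-/- liver shared it with Stat3Fl/Fl Mdr2-/- liver. With the pattern as a covariate, that comparison called 37 of all tested genes, against 806 without it. The covariate is estimated from array A of Stat3Δhc Mdr2-/- liver against its arrays B and C alone, so the adjusted comparison rests on that array A. With array A left out, so that the pattern and Stat3 deletion coincide in this comparison, 1475 genes were called. These counts therefore do not show how much of the comparison is due to the pattern. Hepatocyte markers, 10 genes, had array means of 12.27 to 12.56 in Stat3Δhc Mdr2-/- liver, 11.91 to 12.04 in Stat3Fl/Fl Mdr2-/-, 12.37 to 12.44 in Stat3Δhc and 11.68 to 12.22 in Stat3Fl/Fl liver. The genes of this list did not move together. In the same order of genotypes, Alb had means of 13.75, 13.77, 13.83 and 13.84 and Ttr of 13.15, 13.29, 13.5 and 13.55. Cyp7a1 had 10.97, 9.73, 10.9 and 9.69, and Tat 12.51, 11.88, 12.33 and 11.47. Macrophage markers, 12 genes including Adgre1 and Clec4f, had array means of 8.36 to 8.71 in Stat3Δhc Mdr2-/-, 8.71 to 8.85 in Stat3Fl/Fl Mdr2-/-, 8.49 to 8.7 in Stat3Δhc and 8.56 to 9.08 in Stat3Fl/Fl liver. The part of these other tissues and of sex in the results on the 10 genes was not tested beyond the fits named beside them.

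**Figure D2:**
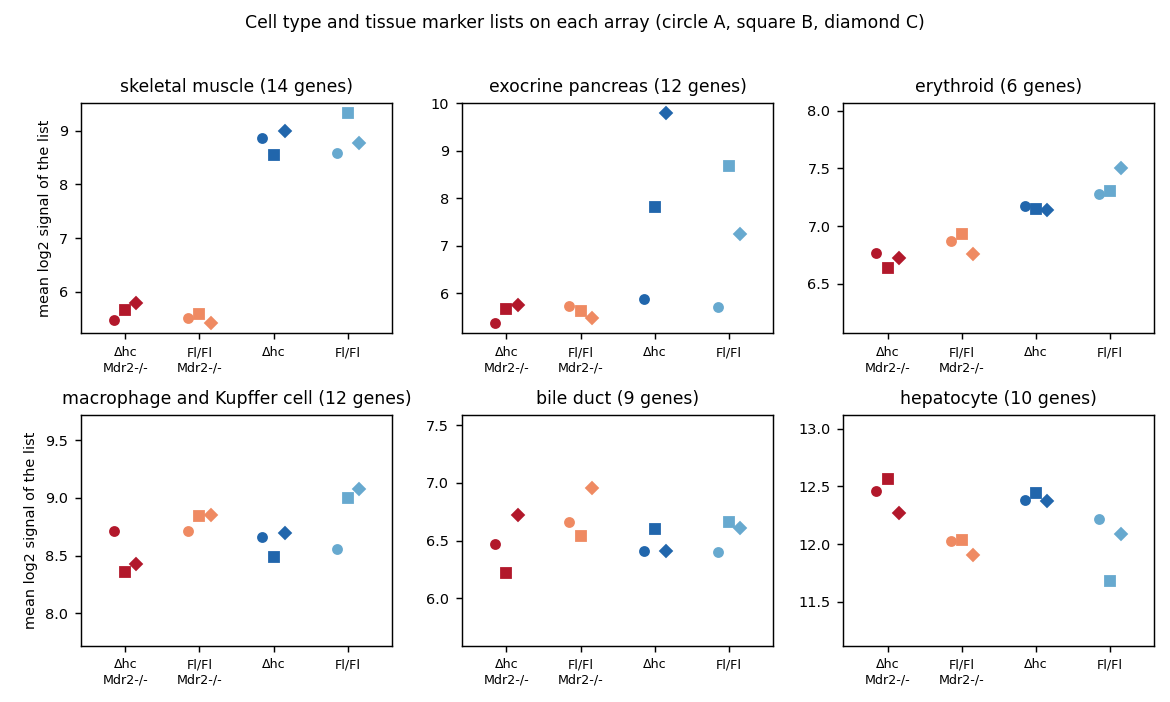
Mean log2 signal of 6 marker lists on each array, with genotypes along the horizontal axis and array letters as symbols. Skeletal muscle means lie between 5.42 and 5.79 in the 6 Mdr2-/- arrays and between 8.55 and 9.33 in the 6 arrays with Mdr2, and the pancreas list reaches 7.25 to 9.79 in 4 of the arrays with Mdr2.

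With Mdr2 loss in Stat3Δhc liver, 3 of the 9 tested genes rose and 0 fell. These were Ephx1, 2.79-fold higher, Srxn1, 1.34-fold higher, and Gclm, 1.3-fold higher. Of all tested genes, 17.4% were called in this comparison, 6.9% upward and 10.5% downward. The 9 genes ran from a log2 change of -0.36 for Nqo1 to 1.48 for Ephx1, with a median of -0.017, against -0.02 over all tested genes. In 5 of the 9 the 3 knockout arrays did not overlap the 3 others, which was so for 37.2% of all tested genes.

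With Mdr2 loss in Stat3Fl/Fl liver, 3 of 9 rose and 0 fell. Ephx1 was 2.37-fold higher, Srxn1 1.4-fold higher and Txnrd1 1.37-fold higher. Of all tested genes, 12.8% were called, 7.12% upward and 5.65% downward. The median of the 9 genes was 0.14, against -0.0042 over all tested genes, and 5 of 9 did not overlap between the genotypes, against 33.3% of all tested genes. Between both backgrounds the Mdr2 effect on these genes was not shown to differ, since 0 of 9 passed the test of the difference, which called 0.0715% of all tested genes (1 of the 9, Txnrd1, had an unadjusted p under 0.05).

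Stat3 deletion moved none of the 9 genes past the threshold by limma, either on the Mdr2 knockout or without it. On the knockout, 5.77% of all tested genes were called, 1.87% upward and 3.9% downward, and the 9 genes lay between -0.25 (Gclc) and 0.29 (Ephx1), with a median of -0.068 against -0.026 over all tested genes. The arrays did not overlap for 2 of 9 genes, against 28.6% of all tested genes, and Gclc and Ephx1, the same 2, had an unadjusted p under 0.05. Without the knockout, 2.58% were called, 1.51% upward and 1.07% downward, and the 9 genes lay between -0.3 (Hmox1) and 0.38 (Txnrd1), with a median of 0.06 against -0.0059. There the arrays did not overlap for 5 of 9 genes, against 25.1% of all tested genes, and Txnrd1, Gclm and Gclc had an unadjusted p under 0.05. The 2 Mdr2 comparisons and the 2 Stat3 comparisons share arrays with each other, so their values are given side by side and not as separate evidence.

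**Figure D3:**
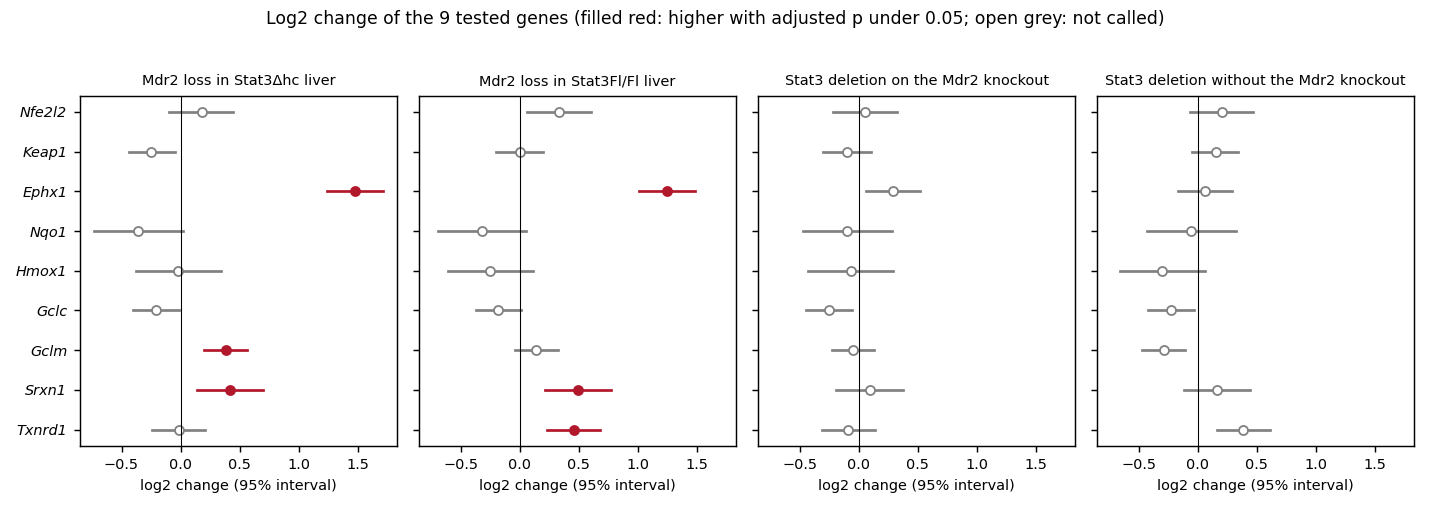
Log2 change of the 9 tested genes (points) with 95% intervals of the limma fit (lines) in 4 comparisons, where filled red points are called and open grey points are not. Ephx1 stands at 1.48 and 1.25 with Mdr2 loss, Srxn1 is also called in both, Gclm in Stat3Δhc liver and Txnrd1 in Stat3Fl/Fl liver, and with Stat3 deletion none is called.

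Nfe2l2 did not pass the test in any comparison. Its log2 signal was 9.57, 9.22 and 9.26 in Stat3Δhc Mdr2-/- liver and 9.45, 9.05 and 9.41 in Stat3Fl/Fl Mdr2-/- liver, against 9.15, 9.07 and 9.31 in Stat3Δhc and 9, 8.88 and 9.05 in Stat3Fl/Fl liver. The order of the means ran from Stat3Δhc Mdr2-/- (9.35 ± 0.19, SD, n = 3) through Stat3Fl/Fl Mdr2-/- (9.3 ± 0.22) and Stat3Δhc (9.18 ± 0.13) to Stat3Fl/Fl (8.97 ± 0.087), and each genotype overlapped the next except Stat3Δhc and Stat3Fl/Fl. Mdr2 loss gave a log2 change of 0.18 in Stat3Δhc liver (SE 0.12, limma adjusted p = 0.325) and 0.33 in Stat3Fl/Fl liver (SE 0.12, adjusted p = 0.108). The change in Stat3Fl/Fl liver passed when array B of Stat3Fl/Fl Mdr2-/- liver was left out (0.46, adjusted p = 0.0309).

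Keap1, the adaptor that targets Nrf2 for degradation, had its lowest mean in the double mutant. The values were 7.85, 7.75 and 8.03 in Stat3Δhc Mdr2-/- liver and 8.02, 7.97 and 7.94 in Stat3Fl/Fl Mdr2-/- liver, against 8.14, 8.06 and 8.17 in Stat3Δhc and 8.06, 8.02 and 7.85 in Stat3Fl/Fl liver. All 3 double mutant arrays lay under the 3 Stat3Δhc arrays, while in the other comparisons the genotypes overlapped. The change with Mdr2 loss was -0.25 in Stat3Δhc liver (SE 0.091, adjusted p = 0.0798) and 0.00068 in Stat3Fl/Fl liver (adjusted p = 0.997). The first was called in 3 of 23 other settings. These were without array C of Stat3Δhc Mdr2-/- liver (-0.32, adjusted p = 0.0372), with median centring (-0.31, adjusted p = 0.0325) and with array weights (-0.35, adjusted p = 0.000554). The difference between both changes was -0.25, with a 95% interval of -0.52 to 0.032 (adjusted p = 0.332).

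Ephx1, the microsomal epoxide hydrolase that opens epoxides to diols, had the largest change of the 9 genes in both Mdr2 comparisons. Its log2 signal was 11.1, 11.04 and 11.22 in Stat3Δhc Mdr2-/- liver, against 9.59, 9.49 and 9.84 in Stat3Δhc liver. In Stat3Fl/Fl Mdr2-/- liver it was 10.92, 10.65 and 10.91, against 9.5, 9.57 and 9.67 in Stat3Fl/Fl liver. Every Mdr2-/- array lay above every array with Mdr2, by a gap wider than the spread of any genotype. The log2 change was 1.48 in Stat3Δhc liver (SE 0.11, limma adjusted p = 3.2e-06) and 1.25 in Stat3Fl/Fl liver (SE 0.11, adjusted p = 1.33e-05), which placed Ephx1 43rd and 48th among 13977 genes ordered from the largest rise down.

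The rise of Ephx1 kept its call in each of the 23 other settings tried, with a range of 1.4 to 1.58 in Stat3Δhc liver and 1.2 to 1.34 in Stat3Fl/Fl liver. With array A of Stat3Δhc Mdr2-/- liver left out, so that all arrays compared in Stat3Δhc liver had the Y-linked pattern, the change was 1.49 (adjusted p = 2.42e-05). Without the 4 arrays that carried pancreas signal, where 1 array was left in each genotype with Mdr2, it was 1.53 in Stat3Δhc liver and 1.33 in Stat3Fl/Fl liver. Stat3 deletion on the knockout gave 0.29, with a 95% interval of 0.057 to 0.52 (adjusted p = 0.112) and no overlap between the arrays. Without the knockout it gave 0.06 (-0.17 to 0.29, adjusted p = 0.84), and the difference of 0.23 did not pass (-0.1 to 0.56, adjusted p = 0.418).

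Nqo1, a quinone reductase widely used as a readout of Nrf2, lay between the 41st and 57th percentile of the arrays and did not pass in any comparison. Its log2 signal was 5.75, 5.84 and 6.03 in Stat3Δhc Mdr2-/- liver, against 6.41, 5.81 and 6.47 in Stat3Δhc liver. It was 6.17, 5.63 and 6.1 in Stat3Fl/Fl Mdr2-/- liver, against 6.29, 6.18 and 6.38 in Stat3Fl/Fl liver. The means were thus lower with Mdr2 loss, opposite in sign to Ephx1, with changes of -0.36 (95% interval -0.73 to 0.018, adjusted p = 0.162) in Stat3Δhc and -0.32 (-0.69 to 0.057, adjusted p = 0.275) in Stat3Fl/Fl liver. Array B of Stat3Δhc liver, at 5.81, stood below its 2 companions, and without it the first change was -0.57 (adjusted p = 0.0251). Nqo1 also had the widest spread within genotypes, an SD of 0.25 against a median of 0.14 over all tested genes.

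Hmox1, which encodes the inducible haem oxygenase, varied almost as much, with an SD within genotypes of 0.24. Its values were 8.85, 8.28 and 8.5 in Stat3Δhc Mdr2-/- and 8.59, 8.41 and 8.83 in Stat3Fl/Fl Mdr2-/- liver, against 8.58, 8.51 and 8.6 in Stat3Δhc and 8.54, 9.17 and 8.89 in Stat3Fl/Fl liver. All genotypes compared overlapped. Its changes with Mdr2 loss were -0.019 (95% interval -0.38 to 0.34) in Stat3Δhc liver and -0.25 (-0.61 to 0.11) in Stat3Fl/Fl liver, with adjusted p = 0.946 and 0.374. Array B of Stat3Fl/Fl liver, the highest, also had the highest skeletal muscle mean (9.33) and the higher of the 2 raised pancreas means of its genotype (8.67). Array C of Stat3Δhc liver, with the highest pancreas mean of all (9.79), had 8.6 for Hmox1. The macrophage means of arrays A, B and C of Stat3Fl/Fl liver were 8.56, 9 and 9.08. The part of muscle, pancreas or macrophage signal in the Hmox1 values was not tested.

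The enzyme that makes gamma-glutamylcysteine, the limiting step of glutathione synthesis, has a catalytic subunit encoded by Gclc and a modifier subunit encoded by Gclm, and their changes with Mdr2 loss had opposite signs, of which that of Gclm in Stat3Δhc liver was called. Gclm had 10.69, 10.63 and 10.58 in Stat3Δhc Mdr2-/- liver, against 10.3, 10.18 and 10.28 in Stat3Δhc liver. In Stat3Fl/Fl Mdr2-/- liver it had 10.81, 10.62 and 10.62, against 10.46, 10.59 and 10.58 in Stat3Fl/Fl liver. The knockout arrays lay above the others in both cases, with a wide gap in Stat3Δhc liver and a narrow one in Stat3Fl/Fl liver. The change was 0.38 (SE 0.082, adjusted p = 0.00798) in Stat3Δhc liver and 0.14 (SE 0.082, adjusted p = 0.313) in Stat3Fl/Fl liver, and their difference of 0.24 did not pass (95% interval -0.01 to 0.49, adjusted p = 0.305). Gclm varied least within genotypes of the 9 genes, with an SD of 0.077.

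The lowest Gclm values were those of Stat3Δhc liver with Mdr2 present, with a mean of 10.25 ± 0.065, against 10.54 ± 0.07 in Stat3Fl/Fl liver (SD, n = 3 each). That difference of -0.29 (SE 0.082) missed the threshold with adjusted p = 0.082 and passed with array weights (adjusted p = 0.0068) or with a trended, robust variance prior (0.0494). On the Mdr2 knockout, Stat3 deletion gave -0.051 (95% interval -0.23 to 0.13). Without the 4 arrays with pancreas signal, where 1 array was left in each genotype with Mdr2, the rise in Stat3Δhc liver was 0.33 and lost its call. In that smaller fit the deleted gene Stat3 itself, at -1.48 without the knockout, also lost its call.

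Gclc had 10.65, 10.58 and 10.66 in Stat3Δhc Mdr2-/- and 11.03, 10.87 and 10.75 in Stat3Fl/Fl Mdr2-/- liver, against 10.9, 10.77 and 10.85 in Stat3Δhc and 10.95, 11.1 and 11.14 in Stat3Fl/Fl liver. The double mutant lay below every other array, and Stat3Fl/Fl liver had the highest mean (11.06 ± 0.1). Stat3 deletion gave -0.25 (SE 0.09, adjusted p = 0.0995) on the knockout and -0.23 (SE 0.09, adjusted p = 0.219) without it, with no overlap between the arrays in either comparison. Mdr2 loss gave -0.21 (adjusted p = 0.124) and -0.18 (adjusted p = 0.23) in Stat3Δhc and Stat3Fl/Fl liver. None of these was called, although all 4 had the same sign.

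Slc7a11, the cystine importer that feeds glutathione synthesis, was near the floor of the arrays. Its values were 4.37, 4.29 and 4.47 in Stat3Δhc Mdr2-/- and 3.95, 4.07 and 4.45 in Stat3Fl/Fl Mdr2-/- liver, against 3.96, 3.98 and 3.8 in Stat3Δhc and 3.98, 4.29 and 3.91 in Stat3Fl/Fl liver. The 3 double mutant arrays lay above the 3 Stat3Δhc arrays, and the other compared genotypes overlapped. At this signal a difference in transcript cannot be measured, and no test was made.

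Srxn1, sulfiredoxin, which repairs overoxidised peroxiredoxins, was higher with Mdr2 loss on both backgrounds. Its log2 signal was 8.72, 8.27 and 8.39 in Stat3Δhc Mdr2-/- liver, against 8.05, 8.05 and 8.02 in Stat3Δhc liver. In Stat3Fl/Fl Mdr2-/- liver it was 8.29, 8.18 and 8.63, against 7.99, 7.79 and 7.85 in Stat3Fl/Fl liver. All 6 Mdr2-/- arrays lay above all 6 others, and they spread more widely. The change was 0.42 (SE 0.13, adjusted p = 0.0421) in Stat3Δhc liver and 0.49 (SE 0.13, adjusted p = 0.0256) in Stat3Fl/Fl liver.

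The call of Srxn1 in Stat3Δhc liver was lost in 12 of the 23 other settings. It was lost with no filter (adjusted p = 0.0533), with median centring (0.0815), with only the groups compared (0.0632) and with the Xist and Y-linked pattern as a covariate (0.111). Without the arrays with pancreas signal, where 1 array was left in each genotype with Mdr2, the change was 0.41 and the call was lost too. Without array A of Stat3Δhc Mdr2-/- liver, at 8.72 the highest, the change was 0.29 (adjusted p = 0.111). For this comparison the covariate fit gives the same result as leaving out that array, so these are not separate losses. The change also missed the threshold without array C of that genotype (0.0699) or without A, B or C of Stat3Δhc liver (0.0998, 0.071 and 0.119). Arrays of Stat3Fl/Fl liver are not compared here, and without B or C of them the change stayed at 0.42. Only the shared spread and the adjustment over genes then moved, and the adjusted p was 0.0527 and 0.0571. In Stat3Fl/Fl liver the call was lost without array C of Stat3Fl/Fl Mdr2-/- liver (0.36, adjusted p = 0.108) or without B or C of Stat3Fl/Fl liver (0.093 and 0.0801). It was also lost without the arrays with pancreas signal, a fit with 1 array left in each genotype with Mdr2 and a change of 0.38. With the Xist and Y-linked pattern as a covariate the change in Stat3Fl/Fl liver was 0.1 (adjusted p = 0.885), a fit that rests on array A of Stat3Δhc Mdr2-/- liver against its arrays B and C. Stat3 deletion gave 0.094 (95% interval -0.19 to 0.37) on the knockout and 0.16 (-0.12 to 0.44) without it.

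Txnrd1, the cytosolic thioredoxin reductase, had its lowest mean in Stat3Fl/Fl liver, which stood apart from the other genotypes. Its values were 8.95, 8.85 and 8.65 in Stat3Δhc Mdr2-/-, 8.81, 8.98 and 8.93 in Stat3Fl/Fl Mdr2-/- and 8.85, 8.71 and 8.95 in Stat3Δhc liver, against 8.49, 8.31 and 8.54 in Stat3Fl/Fl liver. The first 3 genotypes overlapped, and all 9 of their arrays lay above the 3 of Stat3Fl/Fl liver. Mdr2 loss gave 0.46 (SE 0.1, adjusted p = 0.0119) in Stat3Fl/Fl liver and -0.017 (95% interval -0.24 to 0.21, adjusted p = 0.921) in Stat3Δhc liver. Stat3 deletion without the knockout gave 0.38 (SE 0.1), which missed the threshold (adjusted p = 0.069), and on the knockout -0.088 (-0.31 to 0.14, adjusted p = 0.583).

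The difference between the Stat3 effects on Txnrd1, which equals the difference between its Mdr2 effects, was -0.47 (SE 0.15, 95% interval -0.79 to -0.16). It had an unadjusted p of 0.00664 and did not pass over all genes (adjusted p = 0.224). The rise with Mdr2 loss in Stat3Fl/Fl liver lost its call without array B of Stat3Fl/Fl liver (0.39, adjusted p = 0.0585) and with the Xist and Y-linked pattern as a covariate (0.25, adjusted p = 0.64). It also lost its call without the arrays with pancreas signal, where 1 array was left in each genotype with Mdr2 and the change was 0.41. The effect of Stat3 deletion without the knockout passed in 5 of 23 other settings, among them leaving out array C of Stat3Δhc Mdr2-/- liver (0.38, adjusted p = 0.0428) and cyclic loess scaling (0.36, adjusted p = 0.0311).

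**Figure D4:**
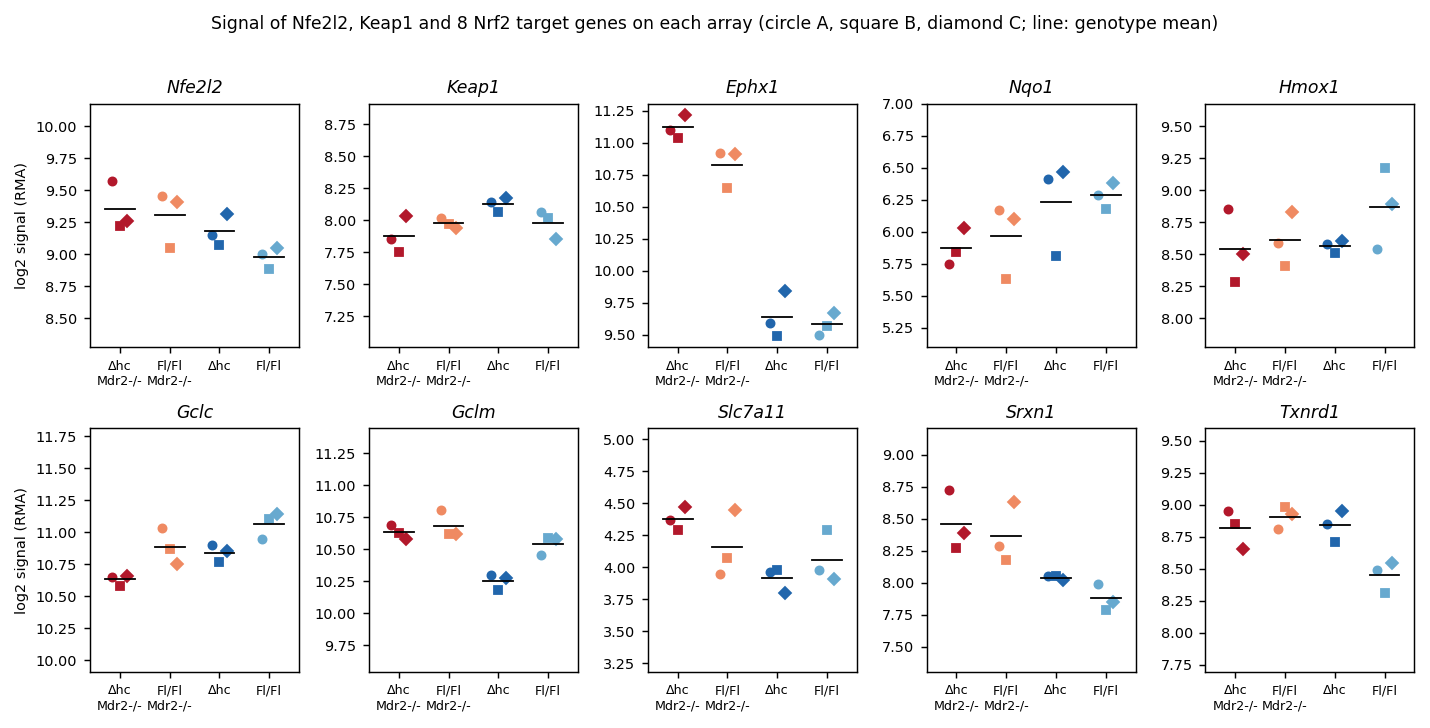
Log2 RMA signal of each of the 10 genes on every array (circle, square and diamond for arrays A, B and C), with the genotype mean as a line; each panel spans its own range of the signal axis. Ephx1 separates the Mdr2-/- arrays (10.65 to 11.22) from the others (9.49 to 9.84), Srxn1 separates them more narrowly (8.18 to 8.72 against 7.79 to 8.05), and Txnrd1 is lowest in Stat3Fl/Fl liver (8.31 to 8.54).

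Around these genes, 66 further genes of the pathway were listed in 5 groups by function, of which 57 were measured and 56 tested. With Mdr2 loss 10 of 56 rose and 9 fell in Stat3Δhc liver, where 6.9% of all tested genes rose and 10.5% fell. In Stat3Fl/Fl liver 13 rose and 3 fell, where 7.12% of all tested genes rose and 5.65% fell. With Stat3 deletion on the knockout 6 rose and 2 fell, where 1.87% of all tested genes rose and 3.9% fell, and without the knockout 8 rose and 1 fell, where 1.51% of all tested genes rose and 1.07% fell. The median change of the 56 was -0.005, 0.065, 0.042 and 0.1 in these 4 comparisons, against -0.02, -0.0042, -0.026 and -0.0059 over all tested genes. With the Xist and Y-linked pattern as a covariate, 0 of the 56 were called with Stat3 deletion on the knockout, where 37 of all 13977 tested genes were. The same covariate left 0 called with Mdr2 loss in Stat3Fl/Fl liver, where it left 102 of all tested genes called. So few calls over all genes leave these counts of 0 without a reading for the pathway genes. The covariate also rests on array A of Stat3Δhc Mdr2-/- liver against its arrays B and C.

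Among 10 regulators and partners of Nrf2, the small Maf gene Maff, which encodes a dimer partner, rose with Mdr2 loss on both backgrounds. Maff had 6.11, 5.94 and 5.86 in Stat3Δhc Mdr2-/- liver, against 5.25, 4.98 and 5.18 in Stat3Δhc liver, a change of 0.84 (adjusted p = 0.000129). In Stat3Fl/Fl Mdr2-/- liver it had 5.91, 5.9 and 5.88, against 5.23, 5.14 and 5.34 in Stat3Fl/Fl liver, a change of 0.66 (adjusted p = 0.00082). Its means lay at the 48th and 47th percentile in Stat3Δhc Mdr2-/- and Stat3Fl/Fl Mdr2-/- liver. In Stat3Δhc and Stat3Fl/Fl liver they lay at the 33rd and 35th, under the 40th percentile required for testing. Maff was thus tested only through the arrays in which it was high, and its p-values carry that selection. Mafk, another small Maf gene, rose by 0.48 (adjusted p = 0.0267) and Nfe2l1, a relative of Nfe2l2, fell by 0.32 (adjusted p = 0.0254) in Stat3Δhc liver. Btrc, a substrate receptor of a second ubiquitin ligase that acts on Nrf2, fell by 0.42 with Stat3 deletion on the knockout (adjusted p = 0.0238). Bach1, Cul3, Sqstm1 and the other listed regulators passed in no comparison.

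Of 16 tested genes of the glutathione and thioredoxin cycle, 3 rose and 1 fell with Mdr2 loss in Stat3Δhc liver, and 4 rose and 1 fell in Stat3Fl/Fl liver, where 17.4% and 12.8% of all tested genes were called. Gss, the second enzyme of glutathione synthesis, had 9.74, 9.65 and 9.4 in Stat3Δhc Mdr2-/- liver, against 9.2, 9.07 and 8.98 in Stat3Δhc liver, a rise of 0.51 (adjusted p = 0.00488). In Stat3Fl/Fl Mdr2-/- liver Gss had 9.61, 9.58 and 9.78, against 9.27, 9.25 and 9.17 in Stat3Fl/Fl liver, a rise of 0.43 (adjusted p = 0.0151). The phospholipid hydroperoxidase gene Gpx4 rose by 0.24 and 0.29 (adjusted p = 0.0351 and 0.0194), and Gpx3 rose by 0.59 in Stat3Δhc liver (adjusted p = 0.023). Gsr, glutathione reductase, rose by 0.4 (adjusted p = 0.00499) and Prdx2 by 0.29 (adjusted p = 0.0297) in Stat3Fl/Fl liver. The mitochondrial thioredoxin reductase gene Txnrd2 fell by 0.49 (adjusted p = 0.00146) in Stat3Δhc liver, and catalase, Cat, fell by 0.37 (adjusted p = 0.0185) in Stat3Fl/Fl liver. Glrx, glutaredoxin, was the 1 gene of this group called with Stat3 deletion, with rises of 0.74 on the knockout (adjusted p = 0.00903) and 0.59 without it (adjusted p = 0.0376).

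The 5 tested genes that supply NADPH did not move together. Me1, malic enzyme, had 7.76, 8.05 and 8 in Stat3Δhc Mdr2-/- liver, against 9.26, 8.95 and 8.62 in Stat3Fl/Fl Mdr2-/- liver, a fall of 1.01 with Stat3 deletion (adjusted p = 0.00492). In Stat3Δhc liver it had 8.51, 8.35 and 8.76, against 8.45, 8.12 and 8.09 in Stat3Fl/Fl liver. With Mdr2 loss Me1 fell by 0.6 in Stat3Δhc liver (adjusted p = 0.0225) and rose by 0.72 in Stat3Fl/Fl liver (adjusted p = 0.0104), and the difference of -1.33 missed the threshold (adjusted p = 0.0699). The cytosolic isocitrate dehydrogenase gene Idh1 fell by 0.47 and 0.38 (adjusted p = 0.0138 and 0.0467). Pgd, Tkt and Taldo1 of the pentose phosphate pathway passed in no comparison.

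Of 13 tested genes that handle quinones, aldehydes, haem and iron, Ugdh was called in all 4 comparisons. Ugdh, which makes UDP-glucuronate for conjugation, had 10.13, 10.58 and 10 in Stat3Δhc Mdr2-/-, 9.05, 9.01 and 9.27 in Stat3Fl/Fl Mdr2-/- and 9.23, 9.23 and 9.56 in Stat3Δhc liver, against 8.79, 8.38 and 8.58 in Stat3Fl/Fl liver. It rose with Mdr2 loss by 0.9 in Stat3Δhc liver (adjusted p = 0.00216) and by 0.53 in Stat3Fl/Fl liver (adjusted p = 0.04), and with Stat3 deletion by 1.13 on the knockout (adjusted p = 0.0026) and by 0.76 without it (adjusted p = 0.0232). Aox1, an aldehyde oxidase, rose by 0.43 with Mdr2 loss in Stat3Fl/Fl liver (adjusted p = 0.00787) and with Stat3 deletion by 0.33 on the knockout (adjusted p = 0.0485) and 0.54 without it (adjusted p = 0.00912). Osgin1, an oxidative stress induced growth inhibitor, fell by 1.34 with Stat3 deletion without the knockout (adjusted p = 0.00594) and rose by 0.88 with Mdr2 loss in Stat3Δhc liver (adjusted p = 0.0129). The aldehyde dehydrogenase gene Aldh3a2 fell by 0.5 in that comparison (adjusted p = 0.00973), and the ferritin light chain gene Ftl1 rose by 0.26 with Mdr2 loss in Stat3Fl/Fl liver (adjusted p = 0.0421).

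Among 12 tested genes of conjugation and export, glutathione S-transferases and the exporter Abcc3 were called. With Mdr2 loss 3 rose and 4 fell in Stat3Δhc liver (6.9% and 10.5% of all tested genes), and 4 rose and 1 fell in Stat3Fl/Fl liver (7.12% and 5.65% of all tested genes). Gstp1 rose by 0.99 in Stat3Δhc liver (adjusted p = 0.000361) and by 0.42 in Stat3Fl/Fl liver (adjusted p = 0.0499). Gstm3 rose by 0.59 (adjusted p = 0.0377) and by 1.19 (adjusted p = 0.00099), and Gstm1 rose by 1.06 in Stat3Fl/Fl liver (adjusted p = 0.00099). Abcc3, which exports conjugates across the basolateral membrane, fell by 0.68 in Stat3Δhc liver (adjusted p = 0.00993) and rose by 0.7 in Stat3Fl/Fl liver (adjusted p = 0.0098). Gstm4 and Gstm2 fell by 0.49 and 0.41 in Stat3Δhc liver (adjusted p = 0.015 and 0.0474), and Gsta3 fell by 0.42 in Stat3Fl/Fl liver (adjusted p = 0.00885). With Stat3 deletion without the knockout 5 rose and 0 fell (1.51% and 1.07% of all tested genes), led by Abcc3 (1.43, adjusted p = 0.000576), Gstm1 (1.11, adjusted p = 0.0035) and Gstm3 (1.03, adjusted p = 0.0102). On the knockout 3 rose and 0 fell (1.87% and 3.9% of all tested genes), namely Gsta3, Gstp1 and Gsta4, by 0.51, 0.5 and 0.49 (adjusted p = 0.0085, 0.0406 and 0.0224). The Gstm and Gsta genes have close paralogs, and how far the probes of 1 gene also bind transcripts of another was not tested. Among the called genes of these lists, Gstm3, Gpx4, Me1 and Prdx2 each had 2 clusters annotated to them alone. Only the cluster of higher mean is described, and the other is not given here.

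**Figure D5:**
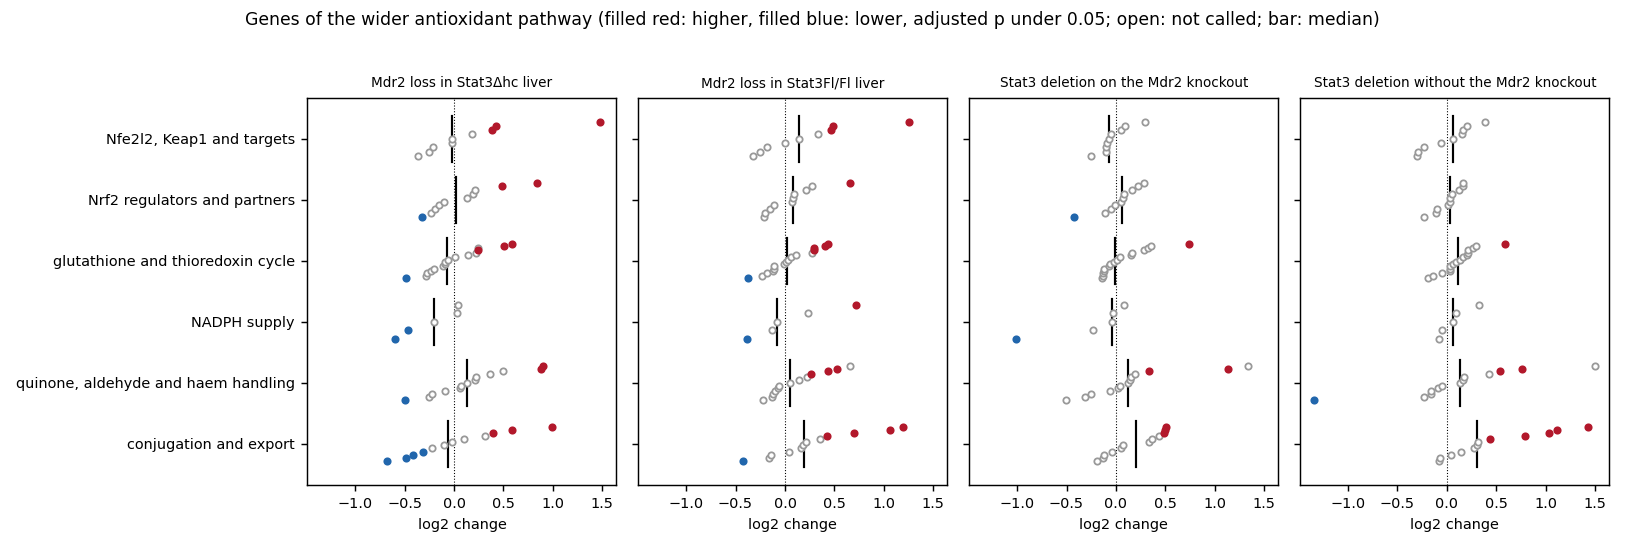
Log2 change of the tested genes of 6 functional groups in 4 comparisons, with called rises in red, called falls in blue, genes not called as open circles and group medians as bars. Called genes lie on both sides of 0 with Mdr2 loss in Stat3Δhc liver (10 rises and 9 falls outside the top row) and mostly above 0 in Stat3Fl/Fl liver (13 rises and 3 falls).

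For the 4 genes called in at least 1 comparison, the tested genes of most similar pattern were found by the root mean square difference of mean-centred log2 values over the 12 arrays. For Ephx1 they were Ly6e (0.136), Cd74 (0.173) and Slc20a1 (0.193), against an SD of Ephx1 over the arrays of 0.698. Gclm was nearest to Psmb10 (0.0768), Hpx (0.0813) and Igf2bp3 (0.0821), with an SD of 0.179. Srxn1 was nearest to Btc (0.0967), Gsdmd (0.111) and Parp14 (0.112), with an SD of 0.276, and Txnrd1 to Pik3cb (0.077), Gmeb2 (0.088) and Zfp369 (0.0947), with an SD of 0.205. None of the 4 had another of the 10 genes among its nearest 3.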

How the data were processed

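Total RNA of whole liver was labelled with biotin and hybridised to 12 Affymetrix mouse gene arrays, 3 for each of 4 genotypes. The authors deposited log2 values, made with RMA (no version stated) per the submitters' processing notes, and the genome build of the array annotation is not given in the sources used here. The values ran from 1.37 to 14.54 and the array medians from 6.01 to 6.14.

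Samples were grouped by title. The platform annotation ties 21789 of the 35556 clusters to a single gene, 1621 to several and leaves 12146 unnamed. Of 19938 genes, the 13977 above the 40th percentile of at least 3 arrays were tested with limma 3.58.1 (R 4.3.3; lmFit and eBayes on all 12 arrays, 8 residual and 4.82 prior degrees of freedom, prior SD 0.13), with Benjamini-Hochberg adjustment at 0.05. With 3 arrays a genotype the SE had a median of 0.11 between genotypes and 0.155 for the interaction, which bounds the precision.

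Named genes are the 10 listed genes, Stat3 and Abcb4 as checks of the labels, up to 3 called genes per direction, comparison and pathway list, and the 3 genes most like each called one. The 10 genes and the lists were chosen with earlier results of these data known. Whether the title letters pair the arrays is not stated, and the main fit used no pairing. Deviations of arrays with the same letter correlated at -0.41 to 0.37, and 3 of 18 pairs exceeded 0.1. With different letters the range was -0.37 to 0.48, and 14 of 36 did. Between Stat3Δhc and Stat3Fl/Fl liver, pairs of the same letter had 0.27, 0.073 and 0.37, and those of different letters -0.35 to 0.18. With 3 arrays a genotype these correlations cannot decide whether the letters pair the arrays. Promoter windows are RefSeq's. Figures were drawn with matplotlib 3.10.9. Probe-level files were not used here.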

Additional observations from a re-analysis of the deposited data

Results flagged for a closer look

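Abcc3, a basolateral exporter in the list of conjugation and export genes, passed the test of the difference between the Stat3 effects with and without the Mdr2 knockout. The difference between its log2 changes was -1.38 (SE 0.22, limma adjusted p = 0.0387), from 0.051 on the knockout and 1.43 without it. It had 8.73, 8.32 and 8.82 in Stat3Δhc Mdr2-/- liver, against 8.63, 8.36 and 8.74 in Stat3Fl/Fl Mdr2-/- liver, and 9.38, 9.52 and 9.02 in Stat3Δhc liver, against 7.84, 7.82 and 7.97 in Stat3Fl/Fl liver. The call was kept in 10 of 22 other settings and lost in 12, while the difference stayed between -1.65 and -1.23. It was lost with no filter (adjusted p = 0.0515), cyclic loess (0.0916), the block for the title letter (0.122) and the Xist and Y-linked covariate (0.178). Without the arrays with pancreas signal, where 1 array was left in each genotype with Mdr2, the difference was -1.49 and the call was lost. It was also lost without array A or B of Stat3Δhc liver (0.104 and 0.088), B or C of Stat3Fl/Fl liver (0.14 and 0.111), A or C of Stat3Fl/Fl Mdr2-/- liver (0.0941 and 0.0648) or B of Stat3Δhc Mdr2-/- liver (0.0882).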

How the results depend on the processing

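Of the 6 calls among the 10 genes, 117 of 138 values in other settings kept direction and call and 21 lost the call, with 0 reversals. Of 39 effects not called, 815 of 883 values stayed so with the same sign, 17 became calls and 51 reversed. The reversed values had a size of at most 0.24 after the reversal. The cause was not tested for any change. With array weights, which gave array A of Stat3Δhc liver 9.01 and array C of Stat3Δhc Mdr2-/- liver 0.26, the called genes of the 10 numbered 1 for Stat3 deletion on the knockout, 3 without it, 1 for the difference and 6 for Mdr2 loss in Stat3Δhc liver. Their changes reversed for Nfe2l2 (-0.019) and Srxn1 (-0.042) with Stat3 deletion on the knockout, Nqo1 without it (0.077), and Txnrd1 with Mdr2 loss in Stat3Δhc liver (0.011). For Stat3 deletion without the knockout the 60th percentile filter and cyclic loess called 1 gene each and the trended, robust prior 2. With the Xist and Y-linked pattern as a covariate 1 of the 10 was called with Mdr2 loss in Stat3Fl/Fl liver, and Gclm (0.0048), Hmox1 (0.24) and Txnrd1 (0.048) reversed with Stat3 deletion on the knockout and Nfe2l2 (0.063) and Srxn1 (0.19) for the difference. Without the arrays with pancreas signal, an alternative chosen after the data were seen that leaves 1 array in each genotype with Mdr2, assumed to vary like the other genotypes, 1 was called in each Mdr2 comparison; Nqo1 (0.11) and Hmox1 (0.038) with Stat3 deletion without the knockout, Keap1 (-0.083) and Hmox1 (0.071) with Mdr2 loss in Stat3Fl/Fl liver, and Hmox1 (-0.11) and Srxn1 (0.036) for the difference, reversed. Cyclic loess reversed Gclm (0.016), Hmox1 (0.028) and Txnrd1 (0.0068) with Stat3 deletion on the knockout, Gclc (0.026) and Srxn1 (0.055) for the difference, Hmox1 (0.072) and Txnrd1 (0.074) with Mdr2 loss in Stat3Δhc liver, and Keap1 (-0.043) in Stat3Fl/Fl liver, where median centring gave -0.04.

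Leaving out 1 array gave ranges that crossed 0 with Stat3 deletion on the knockout for Nfe2l2 (-0.079 to 0.12), Nqo1 (-0.26 to 0.0038), Gclm (-0.083 to 0.012), Hmox1 (-0.22 to 0.062) and Srxn1 (-0.035 to 0.23), without the knockout for Nqo1 (-0.18 to 0.15) and Ephx1 (-0.04 to 0.14), for the difference in Nqo1 (-0.25 to 0.084), Gclc (-0.094 to 0.046) and Srxn1 (-0.2 to 0.062), and with Mdr2 loss for Hmox1 (-0.17 to 0.11) and Txnrd1 (-0.085 to 0.069) in Stat3Δhc liver and Keap1 (-0.064 to 0.042) in Stat3Fl/Fl liver. The called genes of the 10 then numbered 0 to 1 for Stat3 deletion without the knockout and 1 to 4 for Mdr2 loss in Stat3Fl/Fl liver, with the 1 reached without array B of Stat3Fl/Fl liver.

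The called pathway genes, of 56, ranged when 1 array was left out from 4 to 9 for Stat3 deletion on the knockout (lowest without array B of Stat3Fl/Fl Mdr2-/- liver), 3 to 10 without it (array B of Stat3Fl/Fl), 0 to 2 for the difference, 9 to 20 for Mdr2 loss in Stat3Δhc liver (array C of Stat3Δhc) and 8 to 18 in Stat3Fl/Fl liver (array C of Stat3Fl/Fl Mdr2-/-). With array weights they numbered 24 for Stat3 deletion without the knockout, 3 for the difference and 32 for Mdr2 loss in Stat3Δhc liver, where all called genes numbered 2955, 567 and 5830 of 13977, against 361, 10 and 2431 without weights. With the Xist and Y-linked covariate they numbered 0 for Stat3 deletion on the knockout, 0 for the difference and 0 for Mdr2 loss in Stat3Fl/Fl liver, and without the arrays with pancreas signal 4, 0, 0, 1 and 0 for Stat3 deletion on the knockout, without it, the difference, and Mdr2 loss in Stat3Δhc and Stat3Fl/Fl liver. With the Xist and Y-linked covariate all called genes numbered 37 for Stat3 deletion on the knockout, 6 for the difference and 102 for Mdr2 loss in Stat3Fl/Fl liver. Fitting only the groups compared gave 4 pathway genes for Stat3 deletion on the knockout. The difference had 0 with no filter, 0 with cyclic loess, 2 with median centring and 2 with the trended, robust prior. The replicate block by title letter gave 0 pathway genes for the difference and changed no call among the 10 genes, while all called genes numbered 473, 237 and 3 for Stat3 deletion on the knockout, without it and the difference, against 806, 361 and 10 without the block.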
